A study of Caenorhabditis elegans with 11 samples.

Results

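The 10 genes described here belong to the PMK-1 immune pathway of Caenorhabditis elegans, out of 42048 genes with a count in the deposited tables. They were chosen by name: tir-1, nsy-1, sek-1 and pmk-1 encode the signalling cascade, vhp-1 a phosphatase that acts on it, atf-7 and zip-2 transcription factors, and F08G5.6, T24B8.5 and dod-22 reported effectors. All 10 were found in the tables and all 10 passed the filter on low counts. Current Ensembl annotation names F08G5.6 irg-4 and T24B8.5 sysm-1.

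The libraries came from whole worms in 5 groups. Early wild-type N2 worms were sequenced on E. coli K12, which makes indole (n = 3), and on the tnaA deletion mutant of K12, which lacks tryptophanase and makes none (n = 2). Late N2 worms were sequenced on K12 (n = 2) and on tnaA (n = 2), and late ahr-1(ia3) worms, which carry a loss-of-function allele of the aryl hydrocarbon receptor gene ahr-1 in every cell, were sequenced on K12 (n = 2). All groups were kept at 16 °C and on their bacteria from the embryo stage, and each library pooled about 150 adults and was labelled a biological replicate. Late worms were 12 days old per the labels. Early worms were 3 days old per the labels and 2-day adults per the design text, so their age is given here only as early.

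In C. elegans, TIR-1, a TIR-domain adaptor and NAD hydrolase, activates a chain of 3 kinases, the MAP kinase kinase kinase NSY-1, the MAP kinase kinase SEK-1 and the p38-type MAP kinase PMK-1. PMK-1 phosphorylates the transcription factor ATF-7, and in the intestine this drives secreted effectors that protect against ingested bacteria. The pathway acts mainly through phosphorylation, which RNA levels do not measure. The RNA counts therefore show how much transcript of each component and effector there was, and not how active the kinases were.

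Libraries held 8310145 to 15307891 reads in genes. Levels are given as scaled CPM, the usual CPM of a gene after TMM scaling between libraries, with the SD over the libraries of a group, and 1 read was worth 0.0572 to 0.103 scaled CPM. A gene is called when the adjusted p of edgeR's quasi-likelihood F test was under 0.05. Library features moved with age as well. Reads outside genes made up 6.14 to 7.19% of early libraries, 8.27 to 8.56% of N2 libraries from old worms on K12, and 9.26 to 14.8% of the remaining old-worm libraries. TMM factors ranged over 0.82 to 0.877 for young worms and over 1.14 to 1.17 for old ones, and marker genes of several tissues shifted, as described with the ageing results. The ahr-1 gene itself had 19 and 14 reads in the mutant libraries, against 56 and 35 in late N2 on K12, so its transcript was lower but present, and where the ia3 change lies in it was not analysed here. Early N2 libraries held 3 to 13 ahr-1 reads.

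With age, transcripts of the cascade, of vhp-1 and of zip-2 rose on both bacteria while those of the 3 effectors fell, with the exception that T24B8.5 on K12 did not fall when libraries were scaled to intestinal markers. On K12, tir-1 rose most, 15.1-fold, followed by vhp-1 at 6.88-fold and zip-2 at 4.62-fold, whereas F08G5.6 fell 11.2-fold and dod-22 fell 8.91-fold. In late against early N2 on K12, 6 of the 10 genes were called higher, where 32.9% of all 15133 tested genes were, and 4 were called lower, where 36.7% were, which makes 69.6% in either direction. On tnaA the same split of 6 and 4 was found beside 35.6% and 36.3% of all genes, or 72% in either direction. All 10 genes were thus called on each bacterium. Most genes changed with age, so these counts are a description, and it is the sizes that set some of the 10 apart. The kinase genes were not among these: on K12, 29.5% of all genes rose at least as much as nsy-1, 20.7% as sek-1 and 21.2% as pmk-1. The median change of the 10 genes was 0.88 on the log2 scale on K12, against -0.04 for all genes, and 1.24 on tnaA, against 0.02. Since the 10 changes split into rises and falls, this median describes no shared shift.

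**Figure D1:**
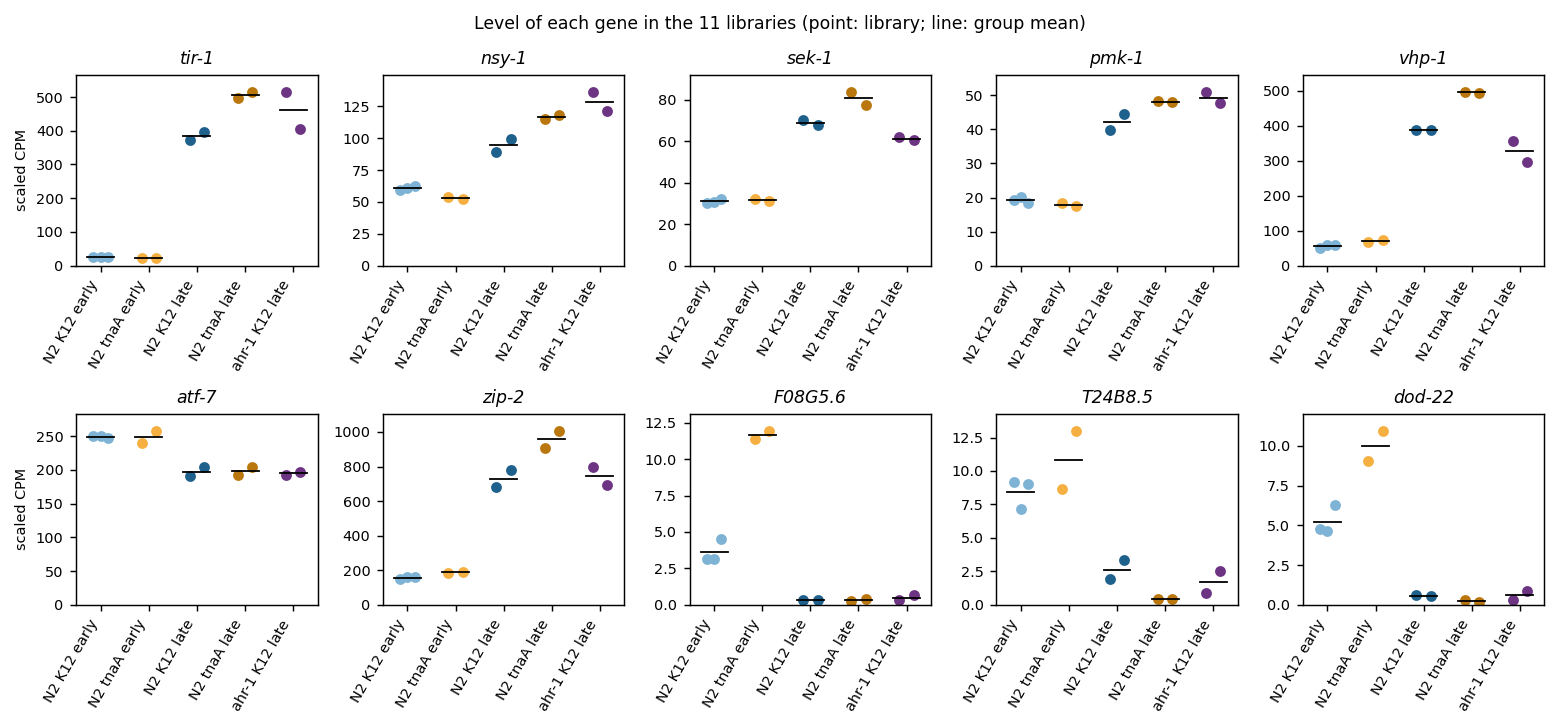
Level of each of the 10 genes in scaled CPM (vertical axis, from 0, a scale of its own per gene) in the 11 libraries, by group; each point is a library and each line the group mean. The 6 late N2 and ahr-1 libraries sit above all 5 early ones for tir-1, nsy-1, sek-1, pmk-1, vhp-1 and zip-2, and below them for the 3 effectors and, on this TMM scaling but not with library size alone, for atf-7.

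The adaptor gene tir-1 had 25.8, 26.0 and 24.6 scaled CPM in the early K12 libraries and 373 and 396 in the late ones. On tnaA it went from 22.7 and 22.9 to 499 and 514. No early library came near a late one, and the change was 3.92 ± 0.09 (log2 ± SE; adjusted p = 2.79e-12) on K12 and 4.47 ± 0.11 (adjusted p = 4.8e-12) on tnaA. Among all genes tested, 3.15% rose at least as much as tir-1 on K12 and 3.77% on tnaA.

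The 3 kinases rose less than the adaptor that feeds them. The gene of the first kinase, nsy-1, had 59.0, 60.9 and 62.1 scaled CPM in early K12 libraries and 89.4 and 99.5 in late ones, a rise of 0.64 ± 0.07 on the log2 scale (adjusted p = 1.27e-06). For sek-1, which encodes the middle kinase, the levels were 30.2, 30.8 and 32.1 early and 70.4 and 67.6 late (1.15 ± 0.06, adjusted p = 2.08e-09). The p38 gene pmk-1 had 19.4, 20.3 and 18.4 scaled CPM early and 39.9 and 44.4 late, a rise of 1.12 ± 0.08 (adjusted p = 2.36e-08). Each of these kinase transcripts thus stood higher in every late than in every early library, by 1.56-fold, 2.22-fold and 2.18-fold in turn.

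On tnaA the kinase genes rose as well. There nsy-1 went from 54.1 and 52.4 scaled CPM, or 698 and 642 reads, to a mean of 116 ± 1.97 (SD, n = 2), from 1951 and 1144 reads, 2.18-fold (adjusted p = 1.33e-08). The sek-1 transcript went from 32.2 and 31.2 to 83.8 and 77.6, 2.56-fold (adjusted p = 1.29e-09). The pmk-1 transcript went from 18.3 and 17.4 to 48.3 and 48.0, 2.7-fold (adjusted p = 7.29e-09). Again no early and late libraries overlapped.

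Of the genes near pmk-1, pmk-2 and pmk-3 encode the other p38-type kinases of the worm. The genes lie on the same strand in the order pmk-3, pmk-2, pmk-1, in a cluster known as an operon. The pmk-2 level rose from 7.66, 9.37 and 9.26 to 31.3 and 31.1 scaled CPM on K12 (1.83 ± 0.10, adjusted p = 2.34e-09). The pmk-3 level rose from 16.6, 20.1 and 16.5 to 52.6 and 53.7 (1.58 ± 0.09, adjusted p = 5.88e-09). All 3 p38 genes therefore rose on K12, pmk-1 with the smallest fitted fold, and on tnaA the order was the same, at 2.15 ± 0.11 for pmk-2, 1.89 ± 0.11 for pmk-3 and 1.43 ± 0.09 for pmk-1 on the log2 scale. The differences between these 3 genes' changes were not tested.

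The phosphatase gene vhp-1, whose product removes phosphate from stress-activated MAP kinases including PMK-1, had 50.3, 60.3 and 58.5 scaled CPM in early K12 worms and 387 and 389 in late ones. On tnaA it had 67.04 and 72.03 early and 497 and 494 late. The late libraries lay far above the early ones, at 2.78 ± 0.08 (adjusted p = 1.57e-11) on K12 and 2.83 ± 0.09 (adjusted p = 4.17e-11) on tnaA. On K12, 6.89% of all genes rose at least as much.

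The transcription factor genes went different ways. The bZIP factor ZIP-2 is known for an infection response that runs largely beside PMK-1, and its transcript rose from 152, 162 and 161 to 682 and 779 scaled CPM on K12 (2.21 ± 0.07, adjusted p = 4.3e-11) and from 184 and 192 to 910 and 1004 on tnaA (2.35 ± 0.09, adjusted p = 7.67e-11). The atf-7 transcript, for the factor that PMK-1 phosphorylates, was 251, 249 and 247 scaled CPM in early and 191 and 204 in late K12 libraries, a fall of 0.33 ± 0.05 on the log2 scale (adjusted p = 5.86e-05). On tnaA it went from 241 and 257 to 193 and 204, with a change of -0.33 ± 0.06 (adjusted p = 0.000152). The groups did not overlap, but the direction of atf-7 rests on the scaling: with library size alone it was 0.08 (adjusted p = 0.115) on K12 and 0.15 (adjusted p = 0.0188) on tnaA, and with scaling to intestinal marker genes it was 1.43 and 1.37.

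The effectors were low in every late group. F08G5.6, which encodes a CUB-like domain protein induced on infection, had 3.17, 3.12 and 4.51 scaled CPM in early K12 libraries and 0.343 and 0.303 in late ones, which were 6 and 5 reads. On tnaA it had 11.39 and 11.91 early and 0.295 and 0.412 late, from 5 and 4 reads. The change was -3.48 ± 0.35 (adjusted p = 1.06e-06) on K12 and -5.1 ± 0.36 (adjusted p = 2.48e-08) on tnaA, where only 0.819% of all genes fell as much or more.

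T24B8.5, which encodes a ShK-like peptide and is widely used as a reporter of PMK-1 activity, had 9.16, 7.13 and 9.03 scaled CPM in early K12 libraries and 1.94 and 3.33 in late ones. On tnaA it had 8.68 and 12.97 early and 0.413 and 0.412 late. Late libraries lay below early ones on both bacteria, with a change of -1.68 ± 0.32 (adjusted p = 0.000355) on K12 and -4.71 ± 0.47 (adjusted p = 7.79e-07) on tnaA.

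The third effector gene, dod-22, encodes another CUB-like domain protein and takes its name from its place downstream of the insulin pathway factor DAF-16. It had 4.75, 4.65 and 6.30 scaled CPM early and 0.629 and 0.545 late on K12. On tnaA it had 9.07 and 10.9 early and 0.295 and 0.206 late, the last from 2 reads. It changed by -3.16 ± 0.33 (adjusted p = 1.52e-06) on K12 and by -5.26 ± 0.40 (adjusted p = 5.89e-08) on tnaA. F08G5.6 passed the filter on low counts only through the early libraries. dod-22 reached its cutoff late only in K12 replicate 1 (11 reads) and ahr-1 replicate 3 (12 reads), and T24B8.5 passed through late K12 too. The falls of F08G5.6 and dod-22 are therefore a description, and the number of effectors that fell supports nothing further. Without any filter all 3 were called lower on both bacteria too.

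**Figure D2:**
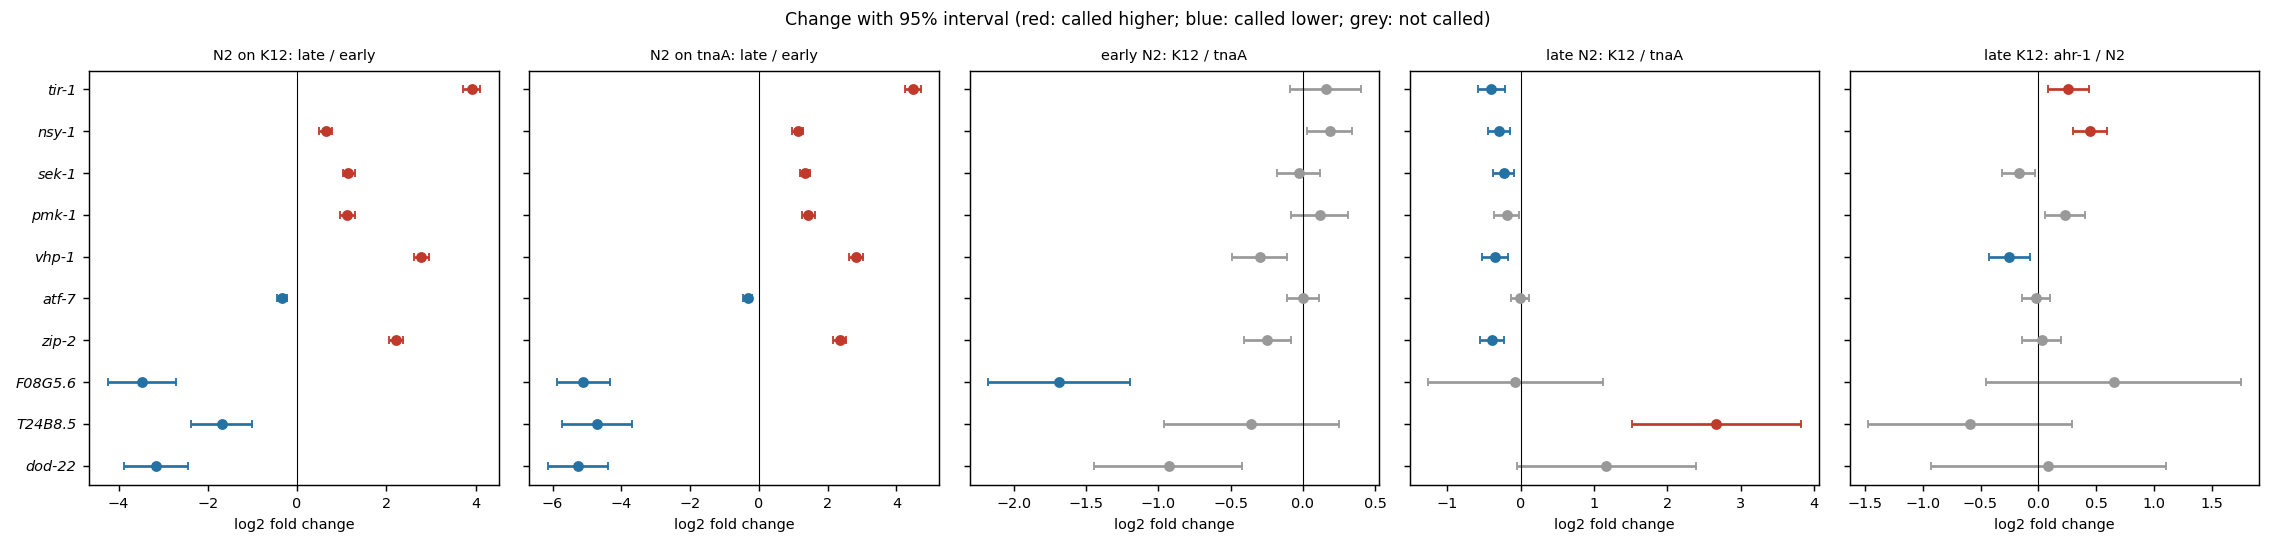
Log2 fold change (horizontal axis, a scale of its own per panel) of the 10 genes in 5 comparisons, as points with 95% intervals; red is called higher, blue called lower and grey not called. With TMM scaling, tir-1, vhp-1 and zip-2 lie far to the right and the effectors far to the left with age, while between bacteria and genotypes the signalling genes lie within 0.5 of 0 and the effectors have wide intervals.

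Per kilobase of exon, which allows levels to be set beside each other across genes, the order of the pathway was recast with age. In early K12 worms zip-2 at 109 and atf-7 at 91.7 scaled CPM per kb stood highest, then vhp-1 at 18.2 and T24B8.5 at 18, which did not differ beyond their spread, then sek-1 at 15.1, nsy-1 at 12 and pmk-1 at 11.6, and last tir-1 at 4.2, dod-22 at 4.17 and F08G5.6 at 3.27. In late K12 worms zip-2 stood at 502, vhp-1 at 125, atf-7 at 72.7, tir-1 at 63.5, sek-1 at 33.6, pmk-1 at 25.2 and nsy-1 at 18.7, above T24B8.5 at 5.61, dod-22 at 0.468 and F08G5.6 at 0.293 scaled CPM per kb. The tir-1 transcript thus moved from the level of dod-22 and F08G5.6 to above all 3 kinases. In late tnaA worms tir-1, at 83.5, also stood above atf-7, at 73.2, and in late ahr-1 worms the 2 genes stood at 76.1 and 71.8, which lies within the spread of tir-1. Exon lengths came from current Ensembl annotation, which may not be the annotation the authors counted on, and a few members share short exon stretches with neighbours. On the opposite strand these were 56 bases of nsy-1 with wdr-83, 70 of sek-1 with R03G5.6, 64 of zip-2 with dos-3 and 21 of tir-1 with a piRNA gene. On the same strand they were 72 bases of atf-7 with C07G2.5, 78 of zip-2 with linc-37 and 33 of nsy-1 with F59A6.13. Whether strand was used in counting is not stated, and reads in these stretches cannot be told apart.

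**Figure D3:**
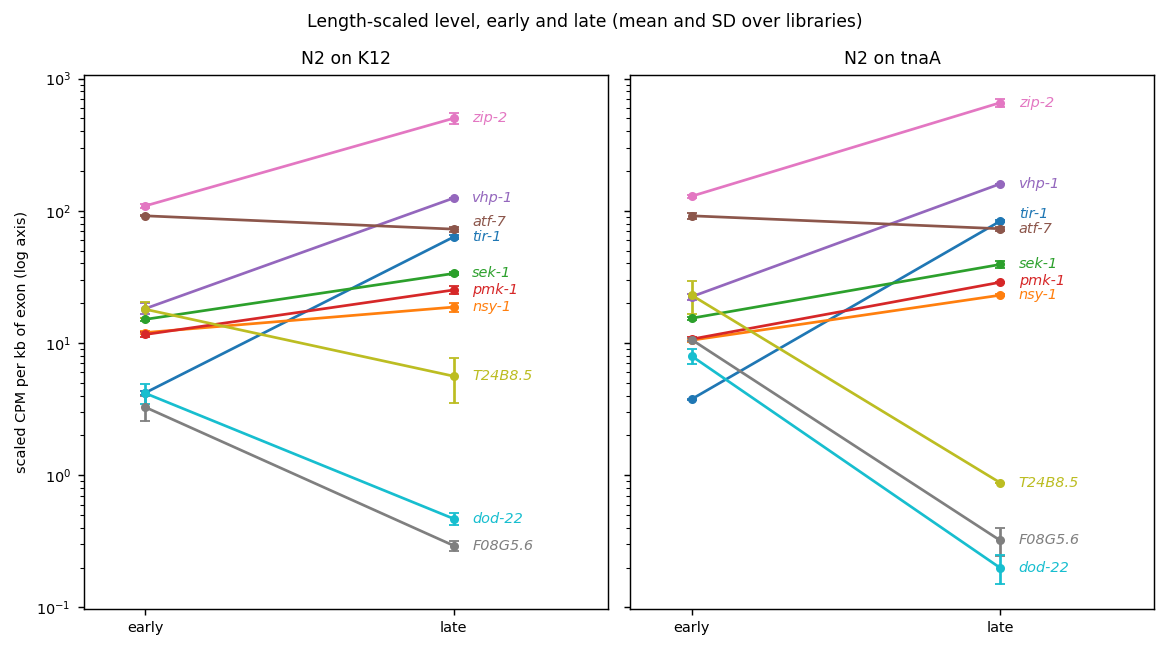
Level per kilobase of exon, in scaled CPM per kb on a log axis, in early and late N2 worms on K12 (left) and tnaA (right); points are group means, error bars the SD over libraries, and lines join the groups. With TMM scaling the tir-1 line rises past those of sek-1, pmk-1 and nsy-1, and the lines of F08G5.6, dod-22 and T24B8.5 end below all others.

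Tissue markers moved with age in the same libraries. Of 10 intestinal marker genes, 9 were called lower in late worms on each bacterium, with a median log2 change of -1.8 on K12 and -1.64 on tnaA. Their summed level was 2630 to 3320 scaled CPM in early K12, 3020 to 3470 in early tnaA, 559 to 722 in late K12, 852 to 855 in late tnaA and 764 to 768 in late ahr-1 libraries, and no marker was at 0 reads in any library. Of 10 neuronal markers, 8 on K12 and 9 on tnaA were called higher. Their summed level was 304 to 311 in early K12, 307 to 317 in early tnaA, 473 to 490 in late K12, 540 to 560 in late tnaA and 472 to 477 scaled CPM in late ahr-1 libraries, again with none at 0. All 7 body wall muscle markers and all 10 germline markers were called lower on both. In these whole-worm samples, fewer cells of a type and less RNA per cell cannot be told apart, and the part of these shifts in the changes of the 10 genes was not tested.

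One value bears on the intestine directly. When libraries were scaled so that the intestinal markers stayed level, the median of all genes moved to 1.74 on K12 and 1.71 on tnaA, and changes are to be read against that. Under this scaling F08G5.6 still fell by 1.72 (adjusted p = 0.00126) and dod-22 fell by 1.39 (adjusted p = 0.0028) on K12, but T24B8.5 stood at 0.08 (adjusted p = 0.825). On tnaA all 3 effectors were still called lower, at -3.42 for F08G5.6, -3.04 for T24B8.5 and -3.59 for dod-22. The counts of all genes called depend on this choice as well: with TMM 4974 rose and 5553 fell on K12, with library size alone 7751 and 3035, and with the intestinal markers 13050 and 584.

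**Figure D4:**
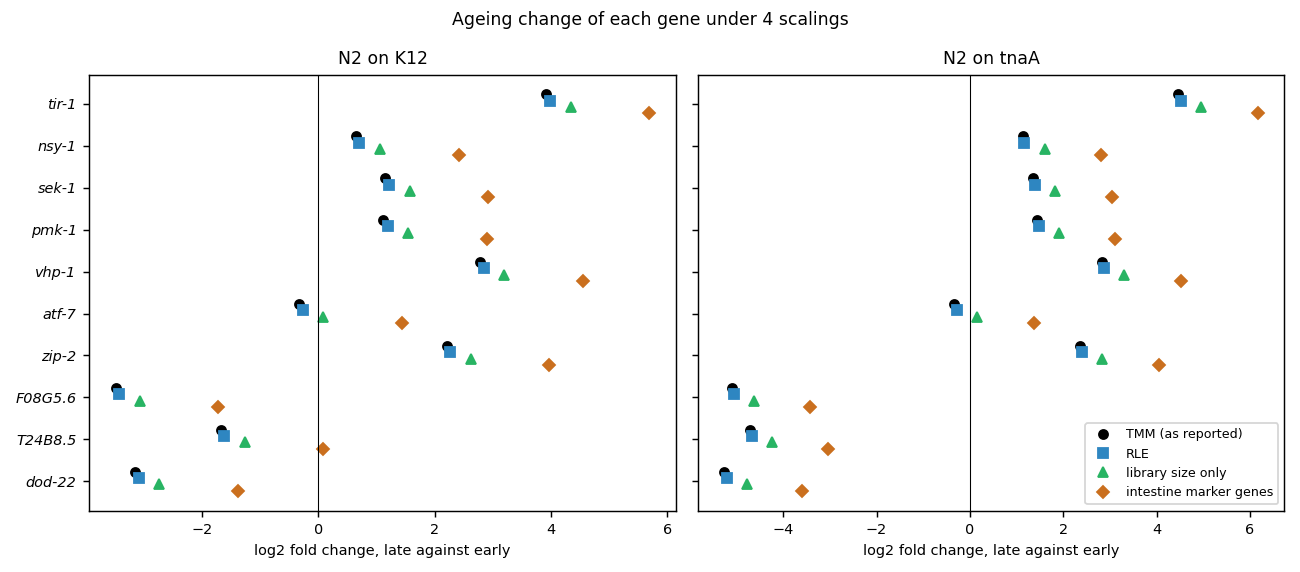
Log2 fold change of the 10 genes with age (horizontal axis) on K12 and on tnaA under 4 ways of scaling the libraries, one symbol per scaling. The cascade, vhp-1 and zip-2 lie above 0 under all 4, atf-7 crosses 0, and among the effectors T24B8.5 on K12 reaches 0 when libraries are scaled to intestinal markers.

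Other genes of the pathway were read from 5 lists. Their calls with age stand beside 32.9% of all genes called higher and 36.7% called lower on K12. On tnaA these shares were 35.6% and 36.3%. Of 15 tested upstream inputs, 10 were called higher with age and 2 lower on K12, with a median of 0.61, and 10 and 2 on tnaA, with a median of 0.75. The Tribbles-like pseudokinase gene nipi-3, which acts with C/EBP factors, rose from 84.8 ± 3.07 to 424 ± 40.1 scaled CPM (2.32 ± 0.07, adjusted p = 2.1e-11) on K12, n = 3 and 2. The membrane protein gene olrn-1, reported to act upstream of the kinases, rose from 3.72 to 31.6 scaled CPM (3.09 ± 0.14, adjusted p = 4.11e-10). The Gq alpha gene egl-30 rose by 0.93 ± 0.08 and the Toll-like receptor gene tol-1 by 0.61 ± 0.06 on the log2 scale. Of the inputs called, most thus rose, while the receptor gene fshr-1 fell by 0.74 on the log2 scale. Calls in either direction made up 69.6% of all genes on K12 and 72% on tnaA.

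The 12 other MAP kinase genes gave 8 called higher and 3 lower on K12 (median 1.01), and 9 and 3 on tnaA (median 1.12). The gene of the axon-injury kinase DLK-1 rose from 39.5 to 146 scaled CPM (1.89 ± 0.07, adjusted p = 5.68e-11), and the KGB-1 pathway kinase gene mlk-1 rose by 1.15 ± 0.07. The ERK gene mpk-1, which has roles in the germline, had 233 ± 7.41 scaled CPM in early worms and fell by 1.04 ± 0.06 on the log2 scale (adjusted p = 4.73e-09). Of 10 other immune transcription regulators, 6 were called higher and 3 lower on K12 and 5 and 3 on tnaA. The C/EBP gene cebp-1 rose from 36.2 ± 4.66 to 212 ± 38.6 scaled CPM (2.55 ± 0.11, adjusted p = 3.83e-10), and the AP-1 gene fos-1 rose by 1.27 ± 0.08. The lysosomal regulator gene hlh-30 rose by 0.76 ± 0.07 and the nuclear receptor gene nhr-49 by 0.56 ± 0.05.

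A further list held 21 other genes, named reported effectors here, of which 19 were tested. Whether each of them, cnc-2 included, depends on PMK-1 was not checked. On each bacterium 14 were called lower and 3 higher with age, with a median of -2.46 on K12 and -2.15 on tnaA. Of all genes, 36.7% were called lower and 32.9% higher on K12, and 36.3% and 35.6% on tnaA. Some of the 19 had few reads in late worms. A gene that passes the filter on low counts only through early libraries is bound to show a fall, so these counts are a description. On K12, dod-24, a CUB-like gene, fell from 48.5 ± 12.7 to 2.28 ± 0.881 scaled CPM (-4.42 ± 0.30, adjusted p = 1.87e-08). C17H12.8, another such gene, fell from 99.8 ± 17.4 to 11.2 ± 3.19 (-3.16 ± 0.22, adjusted p = 2.98e-08), and K08D8.5 fell from 14.2 to 2.29 (-2.63 ± 0.16, adjusted p = 6.46e-09). The glutathione transferase gene gst-4, a target of SKN-1, fell by 2.02 on the log2 scale. The exceptions that rose on K12 and tnaA were the antimicrobial peptide genes cnc-2 (1.73 ± 0.13 and 1.28 ± 0.15) and nlp-31 (1.12 ± 0.22 and 0.82 ± 0.24), which are expressed in the epidermis, and the C-type lectin gene clec-60, which had 2 reads in the early K12 group and 203 in the late one.

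Infection response genes that are known targets of ZIP-2 or respond beside it were split. On K12 irg-1, whose induction by Pseudomonas needs zip-2, rose from 40 reads in the 3 early libraries to 183 in the 2 late ones, or 5.39 ± 0.34 scaled CPM (2.33 ± 0.32, adjusted p = 1.83e-05), and irg-2 rose from 13.8 ± 4.93 to 48.5 ± 7.72 (1.80 ± 0.21, adjusted p = 4.93e-06). By contrast irg-3 fell from 14.1 ± 2.28 to 2.71 ± 0.191 (-2.38 ± 0.20, adjusted p = 1.34e-07). On tnaA the directions were the same.

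**Figure D5:**
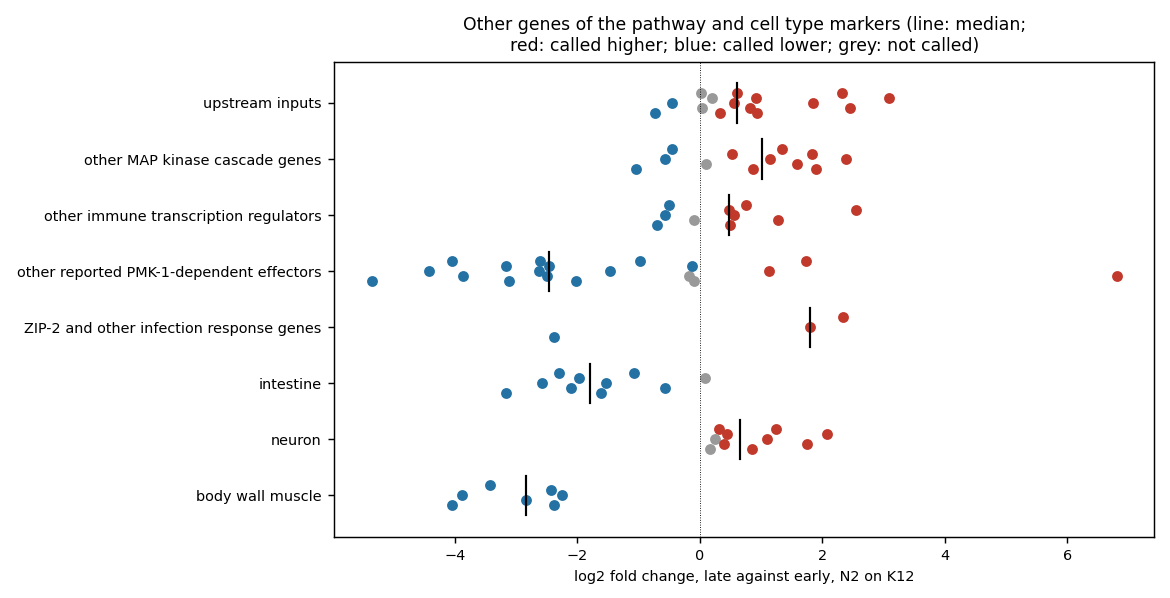
Log2 fold change with age on K12 (horizontal axis) of each tested gene in the 5 pathway lists and in 3 tissue marker lists; points are genes, colours give the call and black lines the list medians. Upstream inputs and kinases lie mostly to the right of 0 and the reported effectors mostly to the left, where intestinal and body wall muscle markers lie too.

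Among late N2 worms, the indole-producing K12 bacteria went with lower levels of most signalling transcripts than tnaA, by 1.17-fold to 1.32-fold, and with a higher level of T24B8.5. The comparison asks whether bacterial indole goes with a different old-age transcriptome. Of the 10 genes, 5 were called lower on K12, where 4.27% of all genes were, and 1 was called higher, where 5.85% were, or 10.1% in either direction. The median of the 10 was -0.21, against -0.06 for all genes. The genes called lower were tir-1, nsy-1, sek-1, vhp-1 and zip-2. Of all genes, 17.8% were lower by at least as much as tir-1, 18.3% as zip-2 and 20.7% as vhp-1. The shares were 25.5% for nsy-1 and 32.5% for sek-1, so changes of these sizes were common.

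In late libraries tir-1 had 373 and 396 scaled CPM on K12 and 499 and 514 on tnaA, a change of -0.40 ± 0.08 (adjusted p = 0.0149). The vhp-1 level was 387 and 389 on K12 and 497 and 494 on tnaA (-0.35 ± 0.08, adjusted p = 0.0217), and that of zip-2 was 682 and 779 against 910 and 1004 (-0.39 ± 0.08, adjusted p = 0.0137). For nsy-1 the change was -0.30 ± 0.07 (adjusted p = 0.0209) and for sek-1 it was -0.23 ± 0.06 (adjusted p = 0.0381). Every K12 library lay below every tnaA library for these 5 genes. The same order held for pmk-1, with 39.9 and 44.4 against 48.3 and 48.0 scaled CPM, but its change of -0.19 ± 0.08 did not pass (adjusted p = 0.141, 95% interval -0.36 to -0.02). The neighbours pmk-2 (-0.34 ± 0.09, adjusted p = 0.0397) and pmk-3 (-0.41 ± 0.09, adjusted p = 0.0194) did pass. For atf-7 the interval was -0.13 to 0.12, with overlapping libraries.

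These lower calls were small and depended on single libraries. Without late K12 replicate 1 none of the 10 genes was called lower, without late tnaA replicate 3 none was, without late tnaA replicate 2 only 1 was and without late K12 replicate 3 there were 3; each of these fits leaves 1 library in a group, which is then assumed to vary like the other groups. Over these 4 fits the fitted change of tir-1 stayed between -0.44 and -0.35. With scaling to the intestinal markers, whose summed level was 559 to 722 on late K12 and 852 to 855 on late tnaA, none of the 5 was called and the changes ranged from -0.27 for tir-1 and zip-2 to -0.10 for sek-1. Germline markers moved with the bacteria as well: 9 of 10 were called higher on late K12, with summed levels of 3630 to 3970 against 2840 to 3000 scaled CPM and none at 0 reads, and so were 9 of 9 oocyte markers, with 7380 to 7770 against 5450 to 5770. Of 10 neuronal markers, 1 was called lower on late K12 and none higher, and 5 lay lower at an unadjusted p under 0.05. Their median change was -0.25, over a range of -0.44 to -0.08. Their summed levels were 473 to 490 against 540 to 560 scaled CPM, with none at 0 reads. The part of these tissues in the calls of the 5 genes was not tested. In the authors' deposited table for this comparison, which lists genes with an adjusted p of at most 0.05, tir-1 (-0.33), nsy-1 (-0.23), vhp-1 (-0.29), zip-2 (-0.32) and pmk-3 (-0.32) were listed as lower on K12, while sek-1 and T24B8.5 were not listed.

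T24B8.5 went the other way. It had 34 and 55 reads in the late K12 libraries, or 1.94 and 3.33 scaled CPM, and 7 and 4 reads in the late tnaA libraries, or 0.413 and 0.412. Both K12 libraries thus lay above both tnaA libraries, 6.37-fold by the fit (2.67 ± 0.53, adjusted p = 0.0124), and 0.264% of all genes rose as much or more. Without late K12 replicate 3 the change was 2.24 (adjusted p = 0.0513), without late tnaA replicate 2 it was 2.68 (adjusted p = 0.0866) and without late tnaA replicate 3 it was 2.67 (adjusted p = 0.0973), while over all 11 fits that each left out a library it ran from 2.24 to 3.02. With scaling to intestinal markers it was 2.81 (adjusted p = 0.0116). The other effectors were not called. For dod-22 there were 11 and 9 reads on K12 and 5 and 2 on tnaA (1.17 ± 0.56, adjusted p = 0.206). F08G5.6 had 6 and 5 against 5 and 4 reads. Its 95% interval was -1.26 to 1.12, so changes anywhere within these bounds remain possible.

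Among the other pathway genes in late worms, the Gq alpha gene egl-30 (-0.34 ± 0.08, adjusted p = 0.0253), olrn-1 (-0.57 ± 0.11, adjusted p = 0.0121) and the protein kinase C gene tpa-1 (-0.34 ± 0.10, adjusted p = 0.0467) were lower on K12, 3 of 15 upstream inputs with none higher by edgeR, by DESeq2 or at an unadjusted p under 0.05. Of the 10 other transcription regulators, nhr-49 (-0.27) and hlh-30 (-0.25) were called lower. These list counts stand beside 4.27% of all genes called lower and 5.85% called higher. The other reported effectors gave 4 of 19 higher and none lower by edgeR, and 3 higher and none lower by DESeq2. At an unadjusted p under 0.05 there were 7 higher and 1 lower. Of the 4 called by edgeR, C17H12.8 had 11.2 ± 3.19 against 3.68 ± 0.546 scaled CPM (1.56 ± 0.37, adjusted p = 0.0225) and K08D8.5 had 2.29 against 1.02 (1.18 ± 0.24, adjusted p = 0.0133). The gene dod-24 had 77 against 6 reads in the group (adjusted p = 0.0278) and F55G11.8 had 26 against 2 reads (adjusted p = 0.0443). The median of these 19 was 0.28, or 0.14 with dod-21, which had no read in the late tnaA group, set to its bound. No pathway gene was called higher without late K12 replicate 1, late tnaA replicate 2 or late tnaA replicate 3, and 1 was without late K12 replicate 3. No pathway gene was called lower without late K12 replicate 1 or late tnaA replicate 3, and 1 was without each of the other 2 late libraries.

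Loss of ahr-1 in late worms on K12 went with a higher nsy-1 level, while the other cascade kinase genes, sek-1 and pmk-1, were not called. This comparison asks whether the receptor, a candidate sensor of indole, alters the old-age transcriptome. Of the 10 genes, 2 were called higher, where 12.3% of all genes were, and 1 lower, where 12.2% were, or 24.4% in either direction, so the share called lies near that of all genes. The nsy-1 level was 136 and 121 scaled CPM in ahr-1 and 89.4 and 99.5 in N2 worms, a rise of 0.45 ± 0.07 (1.36-fold, adjusted p = 0.000904) that was called in all 11 fits that each left out a library, at 0.35 to 0.52. The authors' deposited table lists nsy-1 at 0.42, pmk-2 at 0.42 and vhp-1 at -0.25, and does not list tir-1.

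The tir-1 level was 515 and 406 scaled CPM in ahr-1 and 373 and 396 in N2 worms (0.26 ± 0.08, adjusted p = 0.0388). The mutant libraries differ from each other by more than the lower one differs from N2, and without ahr-1 replicate 1 the change was 0.08 (adjusted p = 0.487). The call held in 3 of the 11 fits that left out a library and was also lost without early K12 replicate 2, either early tnaA library or any late N2 library, at adjusted p of 0.051 to 0.241. The vhp-1 level was 356 and 297 in ahr-1 and 387 and 389 in N2 worms (-0.25 ± 0.08, adjusted p = 0.0456). That call held in 4 of 11 such fits, and without ahr-1 replicate 3 the change was -0.13 (adjusted p = 0.322), while without either tnaA early, tnaA late or late K12 library the adjusted p was 0.0503 to 0.153.

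The other members were not called. The pmk-1 change was 0.23 ± 0.08 (adjusted p = 0.0521, 95% interval 0.06 to 0.40), which passed with library size alone (0.24, adjusted p = 0.0385) and among genes averaging 5 CPM or more (0.25, adjusted p = 0.0223), and that of sek-1 was -0.17 ± 0.06 (adjusted p = 0.0686, 95% interval -0.31 to -0.03), which passed with RLE scaling (-0.21, adjusted p = 0.0237). For both, the groups did not overlap. For zip-2 and atf-7 the intervals were -0.14 to 0.20 and -0.14 to 0.10, with overlapping libraries. T24B8.5 had 0.919 and 2.51 scaled CPM in ahr-1 worms against 1.94 and 3.33 in N2 worms, which overlap (-0.59 ± 0.41, adjusted p = 0.323), and without ahr-1 replicate 3 it was called lower at -1.52 (adjusted p = 0.048). F08G5.6 and dod-22 had 4 to 12 reads per library in both groups. Their 95% intervals were -0.45 to 1.75 and -0.93 to 1.1, so changes anywhere within these bounds remain possible.

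Beside these, pmk-2 was higher in ahr-1 worms, with 44.8 and 41.1 against 31.3 and 31.1 scaled CPM (0.46 ± 0.09, adjusted p = 0.00374), and pmk-3 was not called (-0.02 ± 0.09). Of the other MAP kinase genes, dlk-1 (-0.45 ± 0.07, adjusted p = 0.000772), mlk-1 (-0.37 ± 0.08, adjusted p = 0.0045), kgb-1 (-0.30 ± 0.09) and mpk-1 (-0.22 ± 0.07) were called lower, which with pmk-2 made 1 higher and 4 lower of 12. Among upstream inputs olrn-1 was higher (0.69 ± 0.11, adjusted p = 0.00114). The antimicrobial peptide genes cnc-2, with 23.9 ± 0.199 against 11.7 ± 0.965 scaled CPM (1.03 ± 0.12, adjusted p = 0.000151), nlp-31 (0.70 ± 0.22, adjusted p = 0.0308) and nlp-29 (0.55 ± 0.17, adjusted p = 0.0331) were the 3 of 19 reported effectors called higher. None was called lower by edgeR, 1 was by DESeq2 and 3 had an unadjusted p under 0.05 in that direction. Of all genes, 12.3% were called higher and 12.2% lower by edgeR. The share of reported effectors called higher thus lies near that of all genes. The list counts in this paragraph are a description. None of the 10 other transcription regulators was called in either direction by edgeR or DESeq2, and 3 lay lower at an unadjusted p under 0.05. In these libraries 9 of 10 germline markers were called lower, at 2830 to 3190 against 3630 to 3970 summed scaled CPM, 9 of 9 oocyte markers were, at 5010 to 6090 against 7380 to 7770, and 7 of 10 tested sperm markers were called higher, at 27.4 to 31.3 against 2.57 to 3.21. Of 10 neuronal markers, 4 were called lower by edgeR and by DESeq2 and 1 higher by edgeR, with summed levels of 472 to 477 against 473 to 490 and none at 0 reads. The part of these tissues in the changes above was not tested. The late K12 libraries served as the reference here and as one side of the comparison between bacteria, so the opposite signs of tir-1, nsy-1 and pmk-2 in the 2 comparisons are not independent of each other.

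In early worms the effector F08G5.6 differed between the bacteria. It had 3.17, 3.12 and 4.51 scaled CPM on K12 and 11.39 and 11.91 on tnaA, from 38, 39 and 58 against 147 and 146 reads. The groups were far apart, 3.23-fold lower on K12 (-1.69 ± 0.23, adjusted p = 0.0155), and F08G5.6 was the 1 member called lower, in a comparison where 0.0529% of all genes were called lower and 0.0132% higher, 8 and 2 genes, or 0.0661% in either direction. None of the 10 was called higher by edgeR or by DESeq2, and 1 had an unadjusted p under 0.05 in that direction.

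The call of F08G5.6 rested on few libraries. It was lost without early K12 replicate 2 (-1.60, adjusted p = 0.0983), without early tnaA replicate 2 (-1.72, adjusted p = 0.0594) and without early tnaA replicate 3 (-1.66, adjusted p = 0.264). It was also lost when the 5 early libraries were fitted alone (-1.69, adjusted p = 0.0848). DESeq2 gave -1.70 (adjusted p = 0.00301). Without the 2 early libraries that held most sperm transcripts, 1 from each bacterium, the change was -1.92, with only 1 early tnaA library left. None of 10 intestinal markers was called between the early groups by edgeR or DESeq2, and none had an unadjusted p under 0.05.

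The other effectors in early worms did not pass. dod-22 had 4.75, 4.65 and 6.30 scaled CPM on K12 and 9.07 and 10.9 on tnaA, so that all K12 libraries lay lower (-0.93 ± 0.24, adjusted p = 0.178, 95% interval -1.45 to -0.42). T24B8.5 overlapped between the groups (-0.36 ± 0.28, adjusted p = 0.902). Of the signalling genes, vhp-1 (-0.30 ± 0.09, adjusted p = 0.265) and zip-2 (-0.25 ± 0.08, adjusted p = 0.304) lay lower in all K12 libraries, and nsy-1 (0.19 ± 0.07, adjusted p = 0.471) higher, none past the threshold. The 95% intervals of sek-1, pmk-1 and atf-7 were -0.18 to 0.12, -0.08 to 0.31 and -0.11 to 0.11. None of the genes in the 5 pathway lists was called in early worms by edgeR. DESeq2 called 1, a transcription regulator, and among the 19 tested effectors 1 higher and 3 lower had an unadjusted p under 0.05.

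Across age, 2 of the 10 genes moved to a different extent on the 2 bacteria. The difference of the 2 ageing changes, K12 minus tnaA, was called lower for nsy-1, in a test where 0.971% of all genes were, and higher for T24B8.5, where 1.43% were, or 2.41% in either direction. nsy-1 rose 1.56-fold on K12 and 2.18-fold on tnaA, a difference of -0.49 ± 0.10 (adjusted p = 0.0407). T24B8.5 fell 3.21-fold on K12 and 26.2-fold on tnaA, a difference of 3.03 ± 0.61 (adjusted p = 0.0407). For dod-22, which fell 8.91-fold and 38.3-fold, the difference of 2.10 ± 0.60 did not pass (adjusted p = 0.0763), nor did that of tir-1 at -0.55 ± 0.14 (adjusted p = 0.0575) or of F08G5.6 at 1.62 ± 0.60 (adjusted p = 0.141). For vhp-1, zip-2 and atf-7 the 95% intervals were -0.32 to 0.21, -0.38 to 0.10 and -0.17 to 0.16. Both called differences were lost in 8 of the 11 fits that each left out a library, with adjusted p of 0.0515 to 0.167 for nsy-1 and 0.0501 to 0.146 for T24B8.5; only the fits without early K12 replicate 1 or either ahr-1 library kept them. Of the 19 other reported effectors none was called by edgeR, 7 were higher and none lower at an unadjusted p under 0.05, and DESeq2 called 3 higher.

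Summed over the 3 effectors, the level was 14.9 to 19.8 scaled CPM in early K12 libraries, 29.1 and 35.8 in early tnaA, 2.92 and 4.18 in N2 late on K12, 1 and 1.03 for late tnaA, and 1.59 and 4.06 in late ahr-1 libraries. The sum of the 4 cascade genes was 134 to 138, 124 to 127, 573 to 608, 746 to 757 and 636 to 765 scaled CPM in the same groups. Early tnaA worms therefore held the highest effector sum and the lowest cascade sum of the 5 groups, and late tnaA worms the lowest effector sum, as a description of these libraries.

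Genes with a profile most like that of a member were sought by the root mean square difference of centred log2 levels over the 11 libraries. For pmk-1 these were cbp-1, sma-9 and R10E11.13, each with a difference of 0.07, where the median of 9399 genes was 0.8. The cbp-1 level, for a histone acetyltransferase, was 267 in early K12, 257 in early tnaA, 588 in late K12, 663 in late tnaA and 630 scaled CPM in late ahr-1 worms. For T24B8.5 the nearest were asp-17, an aspartyl protease gene, clec-41 and Y105C5B.15, at 0.34, 0.42 and 0.52, where the median was 1.52. asp-17 had 14.7 ± 2.65 and 20.8 ± 8.9 scaled CPM in early K12 and tnaA worms, and 5.0 ± 0.2, 0.817 ± 0.155 and 4.6 ± 2.37 in late K12, tnaA and ahr-1 worms.

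For F08G5.6 the nearest were oac-6, unc-15 and M02D8.1, at 0.43, 0.53 and 0.55, and for dod-22 they were mlc-1, unc-15 and smd-1, at 0.38, 0.38 and 0.39. unc-15, which encodes paramyosin of the muscle thick filament, had 693 ± 43.5 and 801 ± 0.993 scaled CPM in early and 64.8 ± 2.17 and 56.7 ± 2.65 in late worms on K12 and tnaA. The body wall muscle markers, of which unc-15 is one, summed to 3910 to 4420 scaled CPM in early K12 and 4610 to 4680 in early tnaA libraries, against 408 to 442 in late K12, 395 in late tnaA and 427 to 541 in late ahr-1 libraries. The 11 points behind each likeness share library, depth and age, so these are descriptions of the libraries, and the part of the muscle shift in the effectors' falls was not tested.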

How the data were processed

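RNA of whole worms was sequenced in 11 libraries of 5 groups. Per the submitters' processing notes, the authors used Trim Galore, STAR, HTSeq 0.6.1p2 and DESeq2, and deposited raw read counts per gene; genome build, annotation and strandedness were not given in the sources used here. The authors also deposited log2 fold changes and adjusted p-values from DESeq2 for the late comparisons, of which those of the members are quoted as such, and 8 columns of normalised values that were not used here. The 2 summary lines of each count table stayed out of the library sizes.

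Counts were fitted with edgeR 4.0.16 in R 4.3.3: 15133 genes passed filterByExpr (groups as given, minimum count 10), libraries were scaled by TMM, and 1 quasi-likelihood model held 5 group means over all 11 libraries, with 6 residual degrees of freedom. F tests were two-sided, each of 6 comparisons had its own Benjamini-Hochberg adjustment across the tested genes, and log2 changes are unshrunk with the standard error taken from F. DESeq2 1.42.0 was an alternative, beside other scalings, filters, sample sets, a replicate block and each library left out. The scripts were tested on simulated data with known changes. Whether the replicate numbers of the labels pair libraries could not be settled. Replicates of a group differed by more than counting error, with a chi-square over degrees of freedom of 2.9 to 5.42. Intervals cover the spread between these libraries; reads carried no molecular identifiers.

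The members and the gene lists were chosen with earlier results of these data known. All 10 members are described. From each list, up to 4 called genes with the smallest p in each comparison are named, and pmk-2 and pmk-3 always; clec-60, dod-21, mpk-1 in the ahr-1 comparison, and cnc-2, nlp-31 and mlk-1 with age were named after their values were seen. One list member, F49F6.12, was not found among the gene names. Profile likeness used log2 CPM with a prior count of 2 among genes averaging 5 CPM or more. No sequence is printed.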

Additional observations from a re-analysis of the deposited data

Results flagged for a closer look

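The ageing change of nsy-1 differed between the bacteria by -0.49 on the log2 scale, K12 minus tnaA (SE 0.10, adjusted p = 0.0407, edgeR's quasi-likelihood test of the interaction). All late libraries exceeded all early ones on both bacteria, so the difference lies in the size of the rise. Early levels were 60.7 ± 1.57 on K12 (n = 3) and 53.2 ± 1.22 on tnaA (n = 2), and late levels were 94.5 ± 7.19 and 116 ± 1.97 scaled CPM (n = 2 each).

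The ageing change of T24B8.5 differed by 3.03 on the log2 scale, K12 minus tnaA (SE 0.61, adjusted p = 0.0407 by the same test). Its early levels were 8.44 ± 1.14 on K12 and 10.8 ± 3.03 on tnaA, and its late levels were 2.64 ± 0.978 and 0.412 ± 0.000531 scaled CPM. The late tnaA value rests on 7 and 4 reads.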

How the results depend on the processing

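With age, all 10 genes kept their call on both bacteria without each of the 11 libraries, with RLE scaling, with DESeq2, without a filter, with the compared groups alone and with the replicate block. The direction reversed for 5 values, all under other scalings: atf-7 to 0.08 and 1.43 on K12 and to 0.15 and 1.37 on tnaA (library size alone, then intestinal markers), and T24B8.5 to 0.08 on K12 (intestinal markers). Library size alone moved the median of all genes to 0.38 on K12 and 0.49 on tnaA. Genes called lower with age fell from 4 to 2 on K12 with intestinal markers, and to 1 on each bacterium with a mean of at least 5 CPM, which leaves the effectors untested.

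Between bacteria in late worms, the 5 lower calls became 0 with intestinal markers or the replicate block and ran from 0 to 5 with a library left out. The 1 higher call, T24B8.5, became 0 with the mean of 5 CPM, the replicate block (2.58, adjusted p = 0.0523) and DESeq2, which gave the 3 effectors no adjusted p, and ran from 0 to 1 with a library left out. For ahr-1, the 2 higher calls became 1 with RLE, intestinal markers, the replicate block, the compared groups alone and DESeq2, 3 with library size or the mean of 5 CPM, where pmk-1 joined, and 1 to 2 with a library left out; the 1 lower call became 2 with RLE, 0 with library size, intestinal markers or the block, and 0 to 1 with a library left out. In early worms the 1 lower call became 4 without a filter, 0 with the mean of 5 CPM, the block or the compared groups alone, and 0 to 1 with a library left out. For the difference of ageing changes, higher calls became 2 without a filter or with the compared groups alone, and 0 with the mean of 5 CPM, the block or DESeq2; lower calls became 0 with intestinal markers, the block or without both sperm-rich early libraries, and 2 without a filter, with the mean of 5 CPM, the compared groups alone or DESeq2; both ran from 0 to 2 with a library left out. For the difference of ageing changes too, DESeq2 gave the 3 effectors no adjusted p, so T24B8.5 could not be called by it. Except where stated, the cause was not tested.

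Counts of all genes moved too: late bacteria from 886 higher and 646 lower to 21 and 25 with the replicate block, to 10 and 15 when late tnaA replicate 3 was left out and to 42 and 17 when late K12 replicate 1 was; early bacteria 274 and 171 without a filter and 47 and 42 with DESeq2, from 2 and 8. Deviations of same-numbered libraries correlated at -0.55 to 0.15, with no clear positive pairing. With 2 or 3 libraries per group, this cannot settle whether replicate numbers mark shared batches. Groups of 2 or 3 libraries limit all tests, and late effector levels rest on 2 to 55 reads per library.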
